A study of Homo sapiens with 14 samples.

Results

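RNA from fibroblasts exposed to 2'3'-dideoxycytidine (ddC) for 96 h was compared with RNA from untreated fibroblasts, using 3 treated and 2 untreated libraries out of 14 in the series. Both groups were IMR90, a standard human cell line of fibroblasts from fetal lung, labelled as wild type (WT) and grown in serum-containing medium. The treated cells received 20 uM ddC for 96 h (labelled 4 days), and the untreated cells are labelled as given the water vehicle. The labels put the untreated cells at 4 days, whereas the study's design text puts them at 0 h, so how long they had been in culture when harvested is uncertain. The design text calls all libraries biological replicates. The series also holds 3 libraries each at 24, 48 and 72 h of ddC, which entered the model only to estimate the spread between replicates. All results come from 1 cell line, and expression was read as polyadenylated RNA only. The comparison asks which transcripts had changed by the longest exposure, and the account below follows the changed genes by function, including those of middling size.

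ddC is a cytidine analog that lacks the hydroxyl group needed to extend a DNA chain. Once phosphorylated in the cell it is used by the mitochondrial DNA polymerase, chain synthesis stops, and the number of mitochondrial DNA (mtDNA) copies falls as cells divide. mtDNA encodes a few subunits of the respiratory chain and the RNAs needed to translate them, whereas all other mitochondrial proteins are encoded in the nucleus. Cells under mitochondrial stress are known to activate the integrated stress response, in which the transcription factor ATF4 raises genes of amino acid supply, and lung fibroblasts are known for making collagen and, as myofibroblasts, contractile actin.

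The 5 compared libraries held 11310760 to 12147402 counts, and 13371 of 27142 genes in the table passed the filter on low counts and were tested. The table held 0 genes of the mitochondrial chromosome, and the RNAs transcribed from mtDNA itself are not among the values. Fibroblast identity was checked with 10 markers, whose summed level was 35255 and 35966 CPM (counts per 1000000 library counts, scaled for composition) in the untreated libraries and 41259 to 44749 CPM at 96 h, with 5 of the 10 called. Of 8 epithelial markers, CDH1, SFTPC and NKX2-1 had 0 counts, and the sum was 54.7 and 55.5 CPM untreated and 71.4 to 78.5 CPM at 96 h, mostly the keratins KRT8 and KRT18, which were the 2 called markers. The call of KRT8 ended without treated library 1 or 3 or untreated library 2 (adjusted p up to 0.406) and that of KRT18 without any untreated library (adjusted p up to 0.117). Of 6 endothelial markers PECAM1 and CDH5 were at 0, and the sum was 45.7 and 39.5 CPM untreated and 38.5 to 43.3 CPM at 96 h. Nearly all of that sum was TEK, at 37.9 to 45 CPM over the 5 libraries. Of 6 blood cell markers CD3E was at 0, and the sum was 53.8 and 51.7 CPM untreated and 48.2 to 50.1 CPM at 96 h. Here nearly all of the sum was CD68, at 47.9 to 53.6 CPM over the 5 libraries. The antisense index, the opposite-strand reads per 1000 reads of abundant genes over 251 gene pairs, was 0.876 and 0.959 in the untreated libraries and 1.12 to 1.20 at 96 h, so it moves with the comparison. The nuclear RNA MALAT1 ranged from 77.3 to 194 CPM at 96 h and was 95.1 and 271 CPM untreated. The part of either in the results was not tested. Counts with the index as a covariate are given beside the leading lists.

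Of the 13371 tested genes, 759 (5.68%) were called at an adjusted p under 0.05, of which 477 (3.57%) rose and 282 (2.11%) fell. In all 759 the treated and untreated libraries did not overlap, which held for 40.3% of the tested genes. The median log2 fold change over all tested genes was -0.004. Most called genes changed by little: the median size was 0.37 on the log2 scale, or 1.30-fold, and the interquartile range ran from 0.29 to 0.52, or 1.22- to 1.43-fold. Changes between 0.25 and 0.5 made up 270 of the rises and 184 of the falls. The interquartile range held 379 genes, 237 higher and 142 lower. Rises were 62.8% of the calls, 54.9% when only the 5 compared libraries were fitted and 52.6% with a nuclear RNA score as a covariate. A call that held when each of the 14 libraries was left out in turn is termed kept here. That was so for 139 genes (1.04% of those tested), 100 higher and 39 lower, of which 54 lay in the interquartile range. The untreated libraries decided the number of calls most. Numbering libraries by replicate, it was 265 and 174 without untreated libraries 1 and 2, and 425 and 431 without treated (96 h) libraries 1 and 3. All 759 genes had the same sign in each of these fits. For lists with at least 8 calls in a direction, the count is given where leaving out 1 library moved it by more than 1.5 times. Genes named below as risen or fallen are kept unless the libraries that end the call are given.

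**Figure D1:**
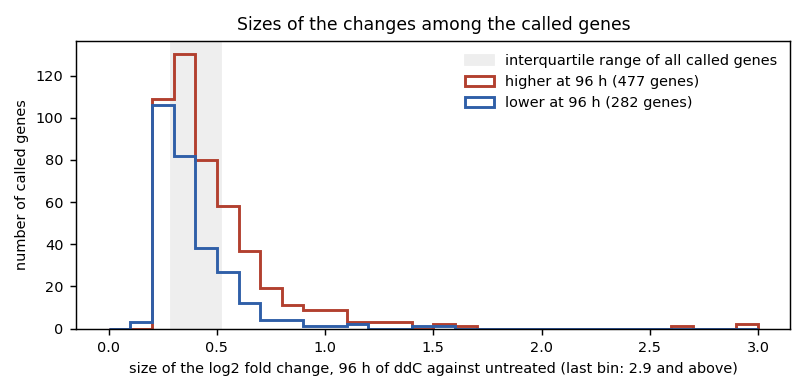
Number of called genes (vertical axis) by the size of their log2 fold change at 96 h against untreated (horizontal axis, bins of 0.1), for 477 rises and 282 falls. The shaded band is the interquartile range of all called genes, 0.29 to 0.52, and most rises and falls lie under 0.5.

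The called genes were sorted into 53 functional lists that together hold 4042 tested genes (30.2% of all tested). Lists held 456 of the 759 called genes (60.1%), and 303 were in none. By program, 25.5% of 255 tested matrix genes were called, 61 higher and 4 lower. In cell cycle and p53 lists 20.6% of 427 were called, 30 higher and 58 lower, and in metabolic lists 18.2% of 406, 64 higher and 10 lower. Cytoskeleton and adhesion followed with 13.5% of 393, inflammation with 12.1% of 199 and signalling with 10.3% of 639. Lists of protein synthesis and RNA had 3 rises and 31 falls among 493 tested genes. Mitochondrial lists had the smallest share of these programs, 2.40% of 375, with 6 rises and 3 falls. Genes within the interquartile range of size were spread over the same programs, with 46 of them in cell cycle and p53 lists, 36 in metabolism, 35 in the matrix, 31 in signalling, 29 in stress, 21 in cytoskeleton and adhesion, 11 in inflammation, 11 in protein synthesis and RNA, 10 in secretion and transport and 4 in mitochondrial lists. A gene can be in several lists, so these counts overlap.

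**Figure D2:**
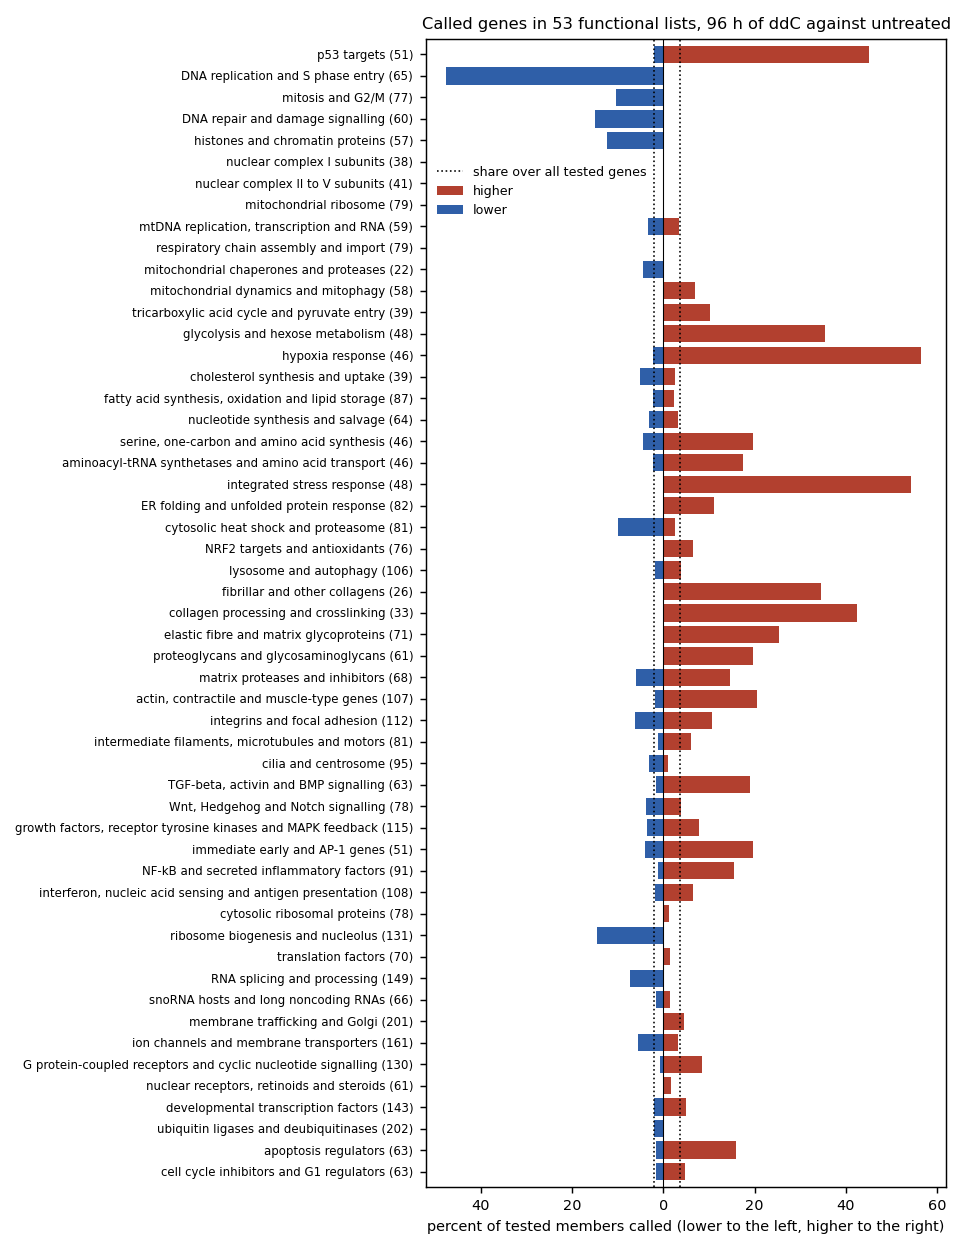
Percent of the tested members of each of 53 functional lists (number tested in parentheses) that were called higher (right) or lower (left) at 96 h against untreated, with dotted lines at the share over all tested genes, 3.57% higher and 2.11% lower. Hypoxia, stress response, p53, collagen processing and glycolysis lists reach furthest to the right, DNA replication furthest to the left, and 4 mitochondrial lists have no bar.

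Targets of p53, the transcription factor that answers DNA damage and other stress, were higher where called, with 1 exception. Of 51 tested members, 23 rose and 1 fell, with a median log2 fold change of 0.32. 9 of the rises were kept. The number called higher was 11 without untreated library 2, and 11 with the antisense index as a covariate. CDKN1A (hg19 chromosome 6, 36646487 to 36655116), which encodes the cell cycle inhibitor p21, stood at 449.9 and 429 CPM untreated and 856, 878 and 903 CPM at 96 h. The treated libraries were all well above the untreated ones and close to each other, a log2 fold change of 1.00 ± 0.08 (SE, adjusted p = 3.05e-07). BBC3, which encodes the proapoptotic protein PUMA, was at 5.81 and 6.97 CPM untreated and 12.6, 13.1 and 13.9 CPM at 96 h, a change of 1.05 ± 0.14 (SE, adjusted p = 8.85e-05). SPATA18, which acts in the removal of damaged mitochondrial proteins, was at 5.81 and 6.61 CPM untreated and 13.5, 11.4 and 13.0 CPM at 96 h, with no overlap between the groups and a change of 1.02 ± 0.14 (SE, adjusted p = 0.000139). The antiproliferative gene BTG2 rose by 0.94 ± 0.13, the mitochondrial ferredoxin reductase FDXR by 0.79 ± 0.12 and the growth arrest gene GADD45A by 0.53 ± 0.08, each with an adjusted p of 0.000376 or less. GDF15, a secreted stress cytokine in both the p53 and the stress response lists, was at 16.5 and 15.3 CPM untreated and 32.0, 42.6 and 42.3 CPM at 96 h. Replicate 1 was the lowest of the treated libraries but still about 2-fold above the untreated ones, and the log2 fold change was 1.29 ± 0.14 (SE, adjusted p = 2.34e-05). MDM2, the ubiquitin ligase that restrains p53, stood at 0.33 ± 0.07, and its call ended without untreated library 1 (adjusted p = 0.104).

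Genes that start and run DNA replication were all lower where called. Of 65 tested members 31 were called, all of them lower, and the median log2 fold change over the list was -0.34. 17 of these falls were kept. The number called lower was 19 without untreated library 2, and 17 with the antisense index as a covariate. Subunits of the MCM helicase, which opens the double helix at origins, were among them. MCM7 (hg19 chromosome 7, 99690351 to 99699563) was at 249.8 and 258 CPM untreated and 169, 179 and 178 CPM at 96 h, a log2 fold change of -0.53 ± 0.06 (SE, adjusted p = 1.32e-05). MCM4 was at 181 and 189 CPM untreated and 130.2, 130.3 and 131 CPM at 96 h, with the treated libraries almost equal and a change of -0.50 ± 0.06 (SE, adjusted p = 1.35e-05). MCM6 fell by 0.55 ± 0.07 (adjusted p = 2.94e-05) and MCM3 by 0.53 ± 0.08 (adjusted p = 0.000183) on the log2 scale. CCNE2, the cyclin E2 that drives entry into S phase, was at 21.6 and 18.5 CPM untreated and 10.7, 12.6 and 11.0 CPM at 96 h. All 3 treated libraries were lower, and the gene was 1.75-fold down, at -0.81 ± 0.12 (SE, adjusted p = 0.000175). CDC25A, the phosphatase that activates the S phase kinase, was at 32.3 and 30.6 CPM untreated and 19.7, 20.4 and 20.7 CPM at 96 h and changed by -0.64 ± 0.09 (SE, adjusted p = 9.4e-05).

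Falling S phase genes are shown with their promoters because E2F transcription factors, which control S phase entry, bind a short motif near the start of many of them. The letters TTTGGCGC, TTTCGCGC, TTTGGCGG and TTTCCCGC were searched on both strands in the 250 bases before the start of each gene in a RefSeq table (GRCh38.p14), which matched 10033 of 13371 tested genes and 586 of 759 called ones. Of 25 called members of the replication list with a promoter in the table, 12 (48.0%) held 1 of them, and of all 51 tested members with a promoter, 21 (41.2%). The share was 2.91% over all 27305 promoters of the table, 4.75% over tested genes, 11.1% over the 225 called falls with a promoter and 2.49% over the 361 called rises. Promoters on some chromosomes were left out before ranking by p, so the ranking does not cover all kept genes. Among the kept genes ranked, those with a match and the smallest p were MCM7, MFGE8, MCM6 and E2F2. Their upstream sequences follow, 5′ to 3′, with the matched letters in capitals.
MCM7 (GRCh38.p14 chr7:100101398-100101647, minus strand): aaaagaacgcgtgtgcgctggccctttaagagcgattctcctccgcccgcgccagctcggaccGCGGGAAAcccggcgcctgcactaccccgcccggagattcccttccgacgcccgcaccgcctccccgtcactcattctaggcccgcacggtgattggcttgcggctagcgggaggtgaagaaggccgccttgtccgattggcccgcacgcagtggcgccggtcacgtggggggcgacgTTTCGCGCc
MCM6 (GRCh38.p14 chr2:135876444-135876693, minus strand): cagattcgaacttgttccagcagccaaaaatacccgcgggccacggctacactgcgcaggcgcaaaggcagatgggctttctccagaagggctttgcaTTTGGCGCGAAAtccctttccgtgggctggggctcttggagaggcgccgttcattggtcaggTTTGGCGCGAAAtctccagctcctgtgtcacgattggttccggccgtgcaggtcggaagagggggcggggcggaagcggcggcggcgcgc
E2F2 (GRCh38.p14 chr1:23531234-23531483, minus strand): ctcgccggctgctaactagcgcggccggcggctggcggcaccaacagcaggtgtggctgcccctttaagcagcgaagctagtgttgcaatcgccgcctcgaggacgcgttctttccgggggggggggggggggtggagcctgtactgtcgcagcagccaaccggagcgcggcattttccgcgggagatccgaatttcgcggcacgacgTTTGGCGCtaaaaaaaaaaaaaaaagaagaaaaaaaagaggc
MFGE8 (GRCh38.p14 chr15:88913380-88913629, minus strand): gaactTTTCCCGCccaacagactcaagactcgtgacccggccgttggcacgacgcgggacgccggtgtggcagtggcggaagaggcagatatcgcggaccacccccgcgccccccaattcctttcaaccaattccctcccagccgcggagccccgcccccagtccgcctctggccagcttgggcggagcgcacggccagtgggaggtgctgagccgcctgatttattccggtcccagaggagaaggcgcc
MCM7 held matches starting 187 and 9 bases before the gene's start. MCM6 held 2 pairs of overlapping matches on opposite strands, starting 152 and 148 and then 90 and 86 bases before it. E2F2, an activator of S phase genes, held 1 match at 42 bases, and MFGE8, a secreted glycoprotein gene that rose, held 1 match at 245 bases. A match describes the letters and is not a test of binding.

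Genes of mitosis that were called were all lower. Among 77 tested genes of mitosis and G2/M, 8 were called, all lower, with a median of -0.13. DESeq2 called 12 and the fit with the nuclear RNA score 27, whereas 1 was called lower with the antisense index as a covariate. None of these falls was kept, and the number was 13 without 72 h library 3, 0 and 3 without treated libraries 1 and 3 and 0 and 0 without untreated libraries 1 and 2. FOXM1, the transcription factor of mitotic genes, was at 209 and 210.4 CPM untreated and 166, 174 and 184 CPM at 96 h, a change of -0.27 ± 0.06 (SE, adjusted p = 0.00712), and KIF20A, a kinesin of cell division, changed by -0.23 ± 0.06 (SE, adjusted p = 0.0143). The call of FOXM1 ended without treated library 1 or any untreated library (adjusted p up to 0.0910), and that of KIF20A without treated library 1 or any untreated library (adjusted p up to 0.216). MKI67, the proliferation marker Ki-67, was at 385 and 450.4 CPM untreated and 300.3, 282 and 258 CPM at 96 h. The groups did not overlap, but replicate 2 of the untreated libraries was well above replicate 1. The call, at -0.58 ± 0.15 (SE, adjusted p = 0.0458), ended without 24 h library 1, any 48 h library, 72 h library 1, any treated library or any untreated library (adjusted p up to 0.349). The letters of the CHR element (TTTGAA or TTCGAA), which is known from mitotic promoters, were in 31 of 66 tested mitosis genes with a promoter (47.0%). Among the called mitosis genes with a promoter they were in 3 of 6. The share was 14.6% over all promoters, 9.63% over tested genes, 15.1% over called falls and 8.03% over called rises.

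Repair and chromatin genes that were called were all lower. Of 60 tested DNA repair genes 9 fell, with a median of -0.22. Of these falls 2 were kept, and the number was 14 without 72 h library 3, 4 and 4 without treated libraries 1 and 3 and 4 and 3 without untreated libraries 1 and 2. MSH6, which recognises mismatches, was at 109 and 109 CPM untreated and 85.2, 81.6 and 76.7 CPM at 96 h, a change of -0.42 ± 0.06 (SE, adjusted p = 0.000276). PARP1, which marks DNA breaks with ADP-ribose, was at 207 and 211 CPM untreated and 171, 167 and 166 CPM at 96 h, with the treated libraries close together, at -0.32 ± 0.06 (SE, adjusted p = 0.00123). Of 57 tested histone and chromatin genes 7 fell, with a median of -0.14, and DESeq2 called 11. The linker histone H1F0 was the kept fall, at -0.38 ± 0.07 (SE, adjusted p = 0.00101) and an adjusted p = 0.122 with the antisense index as a covariate. EZH2, the methyltransferase of histone H3 in the Polycomb complex, changed by -0.44 ± 0.09 (SE, adjusted p = 0.00322), a call that ended without untreated library 2 (adjusted p = 0.146). The nuclear lamina protein LMNB1 was at 196 and 194 CPM untreated and 150.2, 166 and 159.9 CPM at 96 h, a change of -0.30 ± 0.06 (SE, adjusted p = 0.00412), and lost its call without untreated library 1 (adjusted p = 0.0537). Because RNA was measured in bulk, fewer cells in a phase of the cycle and less RNA per cell cannot be told apart for any of these genes.

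Nuclear genes of the respiratory chain were not called in edgeR's test. Of 38 complex I subunits, 41 subunits of complexes II to V, 79 mitochondrial ribosomal proteins and 79 assembly and import factors, 0 passed, with medians of 0.09, 0.05, -0.02 and -0.04 in that order. At an unadjusted p under 0.05 the numbers were 10, 8, 2 and 5, against 2649 of all 13371 tested genes. DESeq2 called 1, 0, 0 and 0 and limma-voom 0, 0, 0 and 0, and 3, 7, 2 and 2 were called in the fit that includes the nuclear RNA score. With the antisense index as a covariate 1 complex I subunit and 3 subunits of the other complexes were called higher. Among 59 genes that replicate, transcribe or process mtDNA and its RNA, 2 rose and 2 fell. That is 6.78% called, against 5.68% of all tested genes. ELAC2, which cuts the ends of transfer RNAs in mitochondria and nucleus, was the kept call of this list, at 79.3 and 78.2 CPM untreated and 61.1, 61.9 and 64.8 CPM at 96 h. It was lower in every treated library, at -0.33 ± 0.06 (SE, adjusted p = 0.00215) and an adjusted p = 0.0922 with the antisense index as a covariate. TFAM, which packages and transcribes mtDNA, stood at 49.3 and 48.7 CPM untreated and 39.1, 42.5 and 36.8 CPM at 96 h. The treated libraries were all below both untreated ones, but the change of -0.31 ± 0.09 (SE, adjusted p = 0.0449) lost its call without 48 h library 1, 72 h library 1 or 2, treated library 1 or 3 or any untreated library (adjusted p up to 0.229). RRM2B, the p53-induced ribonucleotide reductase subunit that supplies nucleotides outside S phase, was at 51.2 and 42.3 CPM untreated and 57.0, 63.4 and 55.6 CPM at 96 h. That change, 0.33 ± 0.09 (SE, adjusted p = 0.0402), lost its call without 72 h library 1, any treated library or untreated library 2 (adjusted p up to 0.491). POLG, the mtDNA polymerase inhibited by ddC, was at 54.9 and 61.8 CPM untreated and 55.6, 47.3 and 57.0 CPM at 96 h, with overlapping groups and a change of -0.13 ± 0.13 (SE, adjusted p = 0.649). TWNK, the mtDNA helicase, was also not called, at -0.13 ± 0.11 (SE, adjusted p = 0.548). HSPD1, the mitochondrial chaperonin HSP60, was at 257 and 248 CPM untreated and 207, 209.7 and 206 CPM at 96 h and changed by -0.29 ± 0.06 (SE, adjusted p = 0.00896), a call that ended without any untreated library (adjusted p up to 0.112). The mitochondrial biogenesis gene PPARGC1A was too low to be tested.

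Genes that handle nucleosides showed small values. DCK, the kinase that phosphorylates ddC, was at 58.6 and 49.8 CPM untreated and 44.5, 58.0 and 47.2 CPM at 96 h, overlapping between the groups. DCK changed by -0.12 ± 0.11 (SE, adjusted p = 0.589) and was not called. The mitochondrial thymidine kinase TK2 was not called either, at -0.04 ± 0.09 (SE, adjusted p = 0.877). SLC29A1, a nucleoside transporter of the cell surface, was at 22.6 and 22.7 CPM untreated and 18.3, 17.0 and 18.4 CPM at 96 h. Its change of -0.34 ± 0.10 (SE, adjusted p = 0.0411) lost its call without any treated library or any untreated library (adjusted p up to 0.240). In the list of nucleotide synthesis and salvage as a whole, 2 of 64 tested genes rose and 2 fell. That is 6.25% called, against 5.68% of all tested genes. AK4, an adenylate kinase of the mitochondrial matrix that is also induced by low oxygen, was the kept rise, at 6.42 and 5.20 CPM untreated and 10.2, 11.8 and 11.3 CPM at 96 h. The treated libraries were all above the untreated ones, at 0.93 ± 0.16 (SE, adjusted p = 0.000767).

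BNIP3 and BNIP3L rose. They are outer membrane proteins that tag mitochondria for removal and belong to the hypoxia response. BNIP3 was at 74.0 and 72.6 CPM untreated and 108, 109 and 107 CPM at 96 h, with little spread within either group and a change of 0.57 ± 0.08 (SE, adjusted p = 0.000115). BNIP3L was at 169 and 163 CPM untreated and 222, 214 and 217 CPM at 96 h and changed by 0.39 ± 0.07 (SE, adjusted p = 0.00109). In all, 4 of 58 tested genes of mitochondrial dynamics, carriers and mitophagy rose, with a median of 0.01. That is 6.9% called, against 5.68% of all tested genes. Of 39 genes of the tricarboxylic acid cycle and pyruvate entry 4 rose. These included PDK2, a kinase that turns pyruvate dehydrogenase off (0.45 ± 0.09 SE, adjusted p = 0.00509), whose call ended without untreated library 1 (adjusted p = 0.122), and PCK2, which makes phosphoenolpyruvate in mitochondria (0.37 ± 0.08 SE, adjusted p = 0.00759), whose call ended without untreated library 1 (adjusted p = 0.157).

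**Figure D3:**
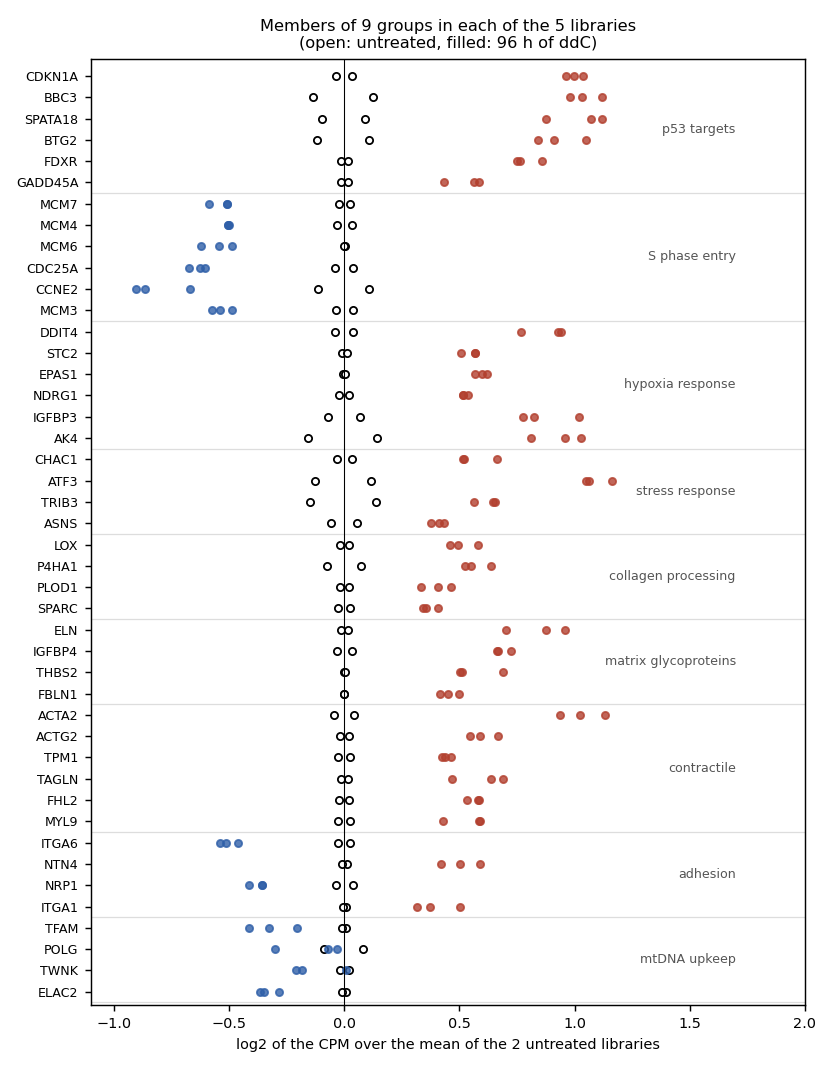
CPM of 44 genes in each of the 5 libraries, as log2 over the mean of the 2 untreated libraries (horizontal axis), by group of genes. Open circles are untreated and filled circles are 96 h libraries, red where the fitted change is above 0 and blue where it is below. The replication genes sit to the left of the untreated libraries, the p53, hypoxia, stress, matrix and contractile genes to the right, and POLG and TWNK overlap with them.

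Genes known to be induced by low oxygen were higher where called, with 1 exception, although no low oxygen treatment was part of the study. Of 46 tested members 26 rose and 1 fell, with a median of 0.39. 16 of the rises were kept. Rises numbered 17 and 17 without untreated libraries 1 and 2, and 16 with the antisense index as a covariate. DDIT4 (hg19 chromosome 10, 74033677 to 74035797), which restrains the growth kinase mTORC1, was at 66.2 and 62.6 CPM untreated and 123, 109.7 and 124 CPM at 96 h, 1.84-fold higher, at 0.88 ± 0.08 (SE, adjusted p = 6.96e-07). STC2, a secreted glycoprotein, was at 663 and 672 CPM untreated and 990, 948 and 989.7 CPM at 96 h, a change of 0.55 ± 0.06 (SE, adjusted p = 4.23e-06). EPAS1, which encodes the oxygen-regulated transcription factor HIF-2 alpha, was at 339 and 342 CPM untreated and 515, 504 and 523 CPM at 96 h. Its libraries differed little within each group, and the change was 0.59 ± 0.06 (SE, adjusted p = 7.53e-06). NDRG1, a gene induced by stress and low oxygen, rose by 0.52 ± 0.06 (adjusted p = 2.44e-05) and IGFBP3, a binding protein of insulin-like growth factors, by 0.88 ± 0.09 (adjusted p = 3.61e-05). HIF1A, which encodes the related factor HIF-1 alpha, a protein regulated mostly by degradation, was at 565 and 546 CPM untreated and 599, 632 and 609.9 CPM at 96 h, without overlap but not called, at 0.14 ± 0.06 (SE, adjusted p = 0.142). VEGFA, the angiogenic growth factor, was not called either. It was at 125 and 149 CPM untreated and 192, 159.5 and 177 CPM at 96 h, with a wide spread within both groups, and its change was 0.36 ± 0.17 (SE, adjusted p = 0.287).

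Genes of glycolysis that were called were all higher, by small amounts. Of 48 tested genes 17 rose, with a median of 0.14. 4 of these were kept. With 1 library left out, rises numbered 10 and 9 without treated libraries 1 and 3 and 5 and 4 without untreated libraries 1 and 2, and 8 with the antisense index. SLC2A1, the glucose transporter GLUT1, was at 245 and 243 CPM untreated and 331, 311 and 343 CPM at 96 h, a change of 0.43 ± 0.07 (SE, adjusted p = 0.000482). PGK1, which makes the first ATP of the pathway, was at 660.3 and 621 CPM untreated and 817, 829 and 803 CPM at 96 h, 1.28-fold higher (0.35 ± 0.06 SE, adjusted p = 0.000852). PGM1, which links glycogen to glycolysis, rose by 0.42 ± 0.07 (adjusted p = 0.00062), and the aldolase ALDOC by 0.58 ± 0.09 (adjusted p = 0.000631).

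Lipid genes were called at shares near that of all tested genes. The share was 4.6% for fatty acids and lipid storage and 7.69% for cholesterol, against 5.68% of all tested genes. In 87 tested genes of fatty acids and lipid storage, 2 rose and 2 fell. CPT1A, which admits fatty acids to mitochondria for oxidation, was at 124 and 126 CPM untreated and 92.8, 98.5 and 98.0 CPM at 96 h, with every treated library below both untreated ones and a change of -0.38 ± 0.07 (SE, adjusted p = 0.00204). UGCG, which makes glucosylceramide, stood at 0.36 ± 0.07 (SE, adjusted p = 0.00375), a call lost without untreated library 2 (adjusted p = 0.0830). Of 39 cholesterol genes 1 rose and 2 fell. HMGCS1, an early enzyme of cholesterol synthesis, was not called, at -0.10 ± 0.09 (SE, adjusted p = 0.618).

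Genes of the integrated stress response were called in 1 direction. Of 48 tested members 26 rose, with a median of 0.30. 9 of the rises were kept. The number called higher was 16 and 13 without untreated libraries 1 and 2, and 16 with the antisense index as a covariate. DDIT4, STC2 and NDRG1, described above, are in this list as well. CHAC1, which breaks down glutathione, was at 55.7 and 58.2 CPM untreated and 81.3, 81.5 and 90.1 CPM at 96 h, a change of 0.57 ± 0.08 (SE, adjusted p = 0.000131). ATF3, a transcription factor induced downstream of ATF4, was at 4.16 and 4.94 CPM untreated and 9.42, 10.2 and 9.51 CPM at 96 h. It was low in all 5 libraries and 2.13-fold higher at 96 h, at 1.09 ± 0.17 (SE, adjusted p = 0.000321) and an adjusted p = 0.0858 with the antisense index as a covariate. TRIB3, a pseudokinase of the same response, was at 30.4 and 24.9 CPM untreated and 40.8, 43.2 and 43.4 CPM at 96 h, a change of 0.62 ± 0.10 (SE, adjusted p = 0.000501). ASNS, the asparagine synthetase, was at 160.2 and 148 CPM untreated and 205, 208 and 200.1 CPM at 96 h, a change of 0.41 ± 0.07 (SE, adjusted p = 0.000609). ATF4 itself was at 239 and 254 CPM untreated and 312, 296 and 316 CPM at 96 h, a change of 0.32 ± 0.06 (SE, adjusted p = 0.00114) that lost its call without untreated library 1 (adjusted p = 0.0508). DDIT3, the proapoptotic factor CHOP, was at 12.6 and 14.7 CPM untreated and 21.4, 16.4 and 17.2 CPM at 96 h and not called (0.43 ± 0.14 SE, adjusted p = 0.0768).

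These genes are shown with the ATF4 composite element, the letters TGATGNAA on either strand, at which ATF4 is known to bind with C/EBP factors. Of 21 called members with a promoter in the RefSeq table, 4 (19.0%) held the letters in the 250 bases before the start. Of all 36 tested members with a promoter 5 held them (13.9%), as did 3.19% of all promoters and 1.38% of tested genes. They were in 7 of 361 called rises (1.94%) and 4 of 225 called falls (1.78%). The kept genes with a match were CHAC1, ATF3 and ASNS, whose upstream sequences follow 5′ to 3′ with the match in capitals.
CHAC1 (GRCh38.p14 chr15:40953221-40953470, plus strand): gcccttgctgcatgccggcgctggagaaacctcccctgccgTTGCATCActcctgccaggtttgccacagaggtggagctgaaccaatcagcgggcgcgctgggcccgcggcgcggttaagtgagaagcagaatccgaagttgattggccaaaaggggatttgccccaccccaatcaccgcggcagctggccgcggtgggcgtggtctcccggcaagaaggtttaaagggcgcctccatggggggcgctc
ATF3 (GRCh38.p14 chr1:212565157-212565406, plus strand): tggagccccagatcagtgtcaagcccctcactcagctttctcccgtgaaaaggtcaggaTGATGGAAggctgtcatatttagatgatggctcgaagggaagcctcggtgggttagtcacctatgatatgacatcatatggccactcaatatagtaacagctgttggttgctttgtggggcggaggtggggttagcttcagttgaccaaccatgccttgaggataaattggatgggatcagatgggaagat
ASNS (GRCh38.p14 chr7:97872409-97872658, minus strand): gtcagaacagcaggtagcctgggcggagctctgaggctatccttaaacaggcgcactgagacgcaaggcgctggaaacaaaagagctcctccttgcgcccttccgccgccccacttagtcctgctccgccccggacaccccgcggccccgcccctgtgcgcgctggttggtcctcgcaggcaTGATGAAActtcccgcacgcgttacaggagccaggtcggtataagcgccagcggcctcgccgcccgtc
The match began 209 bases before the start in CHAC1, where it reads on the opposite strand, 191 bases before it in ATF3 and 68 bases before it in ASNS. For ATF3 the start in the RefSeq table lies far upstream of that of the counted transcript, so its match belongs to another transcript's promoter.

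Part of the genes of amino acid supply changed. Of 46 genes of serine, one-carbon and amino acid synthesis 9 rose and 2 fell, with a median of 0.11, and of 46 transfer RNA synthetases and amino acid transporters 8 rose and 1 fell. The number called higher in the first list was 2 without untreated library 2, and in the second list 4 without treated library 3 and 1 and 2 without untreated libraries 1 and 2. CBS, which makes cystathionine from homocysteine, was at 71.0 and 72.2 CPM untreated and 110.4, 106 and 118 CPM at 96 h, a change of 0.64 ± 0.07 (SE, adjusted p = 2e-05). Its near-identical copy CBSL changed by 0.64 ± 0.07 (SE, adjusted p = 1.94e-05), and the reads of these 2 genes cannot be told apart. SLC7A5, a transporter of large neutral amino acids, was at 0.40 ± 0.08 (SE, adjusted p = 0.00287) and lost its call without untreated library 1 (adjusted p = 0.0590). GARS, the glycyl-tRNA synthetase, was at 0.28 ± 0.06 (SE, adjusted p = 0.00509) and lost its call without untreated library 2 (adjusted p = 0.151).

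Protein folding genes differed between lists. In the endoplasmic reticulum list 9 of 82 rose, and none was kept. The number was 14 without 72 h library 3, 4 and 3 without treated libraries 1 and 3 and 3 and 0 without untreated libraries 1 and 2. PPIC, a prolyl isomerase of the secretory pathway, was at 0.44 ± 0.09 (SE, adjusted p = 0.00589), a call lost without any untreated library (adjusted p up to 0.0791), and HERPUD1, a gene of protein disposal at the reticulum, at 0.37 ± 0.08 (SE, adjusted p = 0.00830), lost without untreated library 2 (adjusted p = 0.188). In the list of cytosolic heat shock proteins and the proteasome 2 of 81 rose and 8 fell. Falls numbered 3 and 3 without treated libraries 1 and 3 and 1 and 2 without untreated libraries 1 and 2. The small heat shock protein HSPB6, common in muscle, was at 151 and 154 CPM untreated and 223, 235 and 237 CPM at 96 h, a change of 0.60 ± 0.08 (SE, adjusted p = 8.87e-05). HSPH1, a nucleotide exchange factor of HSP70, moved the other way, at 221 and 225 CPM untreated and 175, 172 and 164 CPM at 96 h, a change of -0.39 ± 0.06 (SE, adjusted p = 0.00055). Among 76 NRF2 targets and antioxidant genes 5 rose (6.58% called, against 5.68% of all tested genes). These included HMOX1, the heme oxygenase, at 0.40 ± 0.07 (SE, adjusted p = 0.00175), whose call ended without untreated library 2 (adjusted p = 0.0695). TXNRD1, the thioredoxin reductase, was not called, at -0.07 ± 0.06 (SE, adjusted p = 0.574). Of 106 genes of lysosomes and autophagy 4 rose and 2 fell (5.66% called, against 5.68% of all tested genes). GABARAPL1, which coats autophagosomes, was at 0.44 ± 0.07 (SE, adjusted p = 0.000898), lost without untreated library 2 (adjusted p = 0.0708), and the autophagy receptor SQSTM1 was at 353 and 345 CPM untreated and 356, 341 and 362 CPM at 96 h, overlapping between the groups (0.02 ± 0.06 SE, adjusted p = 0.912).

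Collagen genes that were called were all higher. Of 26 tested collagens 9 rose, with a median of 0.19. 3 were kept. Rises numbered 5 and 4 without treated libraries 1 and 3 and 3 and 3 without untreated libraries 1 and 2, and 1 with the antisense index as a covariate. COL1A2, a chain of the main fibrillar collagen, was at 8871 and 8887 CPM untreated and 11564, 10593 and 11019 CPM at 96 h, 1.25-fold higher (0.32 ± 0.05 SE, adjusted p = 0.000908). COL4A1, a basement membrane collagen, was at 2782 and 2888 CPM untreated and 3862, 3456 and 3631 CPM at 96 h and changed by 0.36 ± 0.06 (SE, adjusted p = 0.00109). In both genes replicate 1 was the highest and replicate 2 the lowest of the treated libraries, and none overlapped with the untreated ones. With the index as a covariate the adjusted p was 0.0803 for COL1A2 and 0.182 for COL4A1. The third kept collagen, which is not reported here, rose by more than these and was still called with the index. The other chain of collagen I, COL1A1, was at 16374 and 17420 CPM untreated and 22586, 20326 and 22846 CPM at 96 h, a change of 0.38 ± 0.09 (SE, adjusted p = 0.0186) whose call ended without treated library 1 or 3 or any untreated library (adjusted p up to 0.182). COL3A1 changed by 0.25 ± 0.05 (SE, adjusted p = 0.00743) and lost its call without any untreated library (adjusted p up to 0.119).

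Genes that mature collagen were all higher where called. Of 33 tested genes of collagen processing 14 rose, with a median of 0.23. 7 rises were kept. With 1 library left out, rises numbered 9 and 8 without treated libraries 1 and 3 and 8 and 7 without untreated libraries 1 and 2, and 7 with the antisense index. LOX, which crosslinks collagen and elastin, was at 896 and 872 CPM untreated and 1323, 1244 and 1214 CPM at 96 h, a change of 0.51 ± 0.06 (SE, adjusted p = 1.5e-05). P4HA1, a catalytic subunit of the prolyl hydroxylase of collagen, was at 411 and 372 CPM untreated and 573, 609 and 564 CPM at 96 h, 1.48-fold higher (0.57 ± 0.07 SE, adjusted p = 3.96e-05). PLOD1, which hydroxylates lysines of collagen, was at 666 and 648 CPM untreated and 870.2, 827 and 907 CPM at 96 h, a change of 0.40 ± 0.06 (SE, adjusted p = 0.000238). LOX and P4HA1 are also in the hypoxia list. SPARC, a collagen-binding protein, rose by 0.37 ± 0.06, P4HA2 by 0.36 ± 0.06 and the lysyl oxidase LOXL2 by 0.38 ± 0.06, with an adjusted p of 0.000487 or less.

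Elastic fibre and glycoprotein genes followed. Of 71 tested members 18 rose, with a median of 0.18 and 9 of them kept. The number called higher was 10 without untreated library 2, and 13 with the antisense index. ELN, which encodes elastin (hg19 chromosome 7, 73442119 to 73484236), was at 176 and 179 CPM untreated and 326, 289 and 345 CPM at 96 h, 1.80-fold higher (0.85 ± 0.09 SE, adjusted p = 5.86e-06). IGFBP4, a secreted binding protein of insulin-like growth factors, was at 1479 and 1415 CPM untreated and 2299.8, 2292 and 2388 CPM at 96 h, a change of 0.68 ± 0.07 (SE, adjusted p = 7.53e-06). THBS2, the matricellular protein thrombospondin 2, was at 88.6 and 88.8 CPM untreated and 143, 126 and 126 CPM at 96 h, where replicate 1 was the highest (0.57 ± 0.07 SE, adjusted p = 4.44e-05). FBLN1, a fibulin of elastic fibres, was at 175 and 175 CPM untreated and 234, 239 and 247 CPM at 96 h, with no overlap (0.45 ± 0.06 SE, adjusted p = 0.000142).

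Proteoglycans and protease inhibitors were also called. Of 61 tested proteoglycan genes 12 rose, with a median of 0.15. Rises numbered 6 and 2 without untreated libraries 1 and 2. SULF1, which trims sulfate from heparan sulfate, was at 92.7 and 83.7 CPM untreated and 169, 149.9 and 148 CPM at 96 h, 1.76-fold higher (0.82 ± 0.07 SE, adjusted p = 7.99e-07). SRGN, the proteoglycan serglycin, rose by 0.55 ± 0.09 (adjusted p = 0.000829). Among 68 proteases and inhibitors 10 rose and 4 fell. With 1 library left out, rises numbered 4 and 2 without untreated libraries 1 and 2. SERPING1, the inhibitor of complement C1, was at 12.2 and 8.99 CPM untreated and 23.3, 22.7 and 22.5 CPM at 96 h, 2.15-fold higher (1.11 ± 0.13 SE, adjusted p = 2.38e-05). TIMP3, a matrix-bound inhibitor of metalloproteinases, was at 444 and 429.7 CPM untreated and 568, 578 and 550.2 CPM at 96 h, a change of 0.37 ± 0.06 (SE, adjusted p = 0.000298).

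Most contractile genes that were called were higher. Of 107 tested genes of actin, contraction and muscle 22 rose and 2 fell, with a median of 0.13. 11 of the rises were kept. The number called higher was 12 and 12 without untreated libraries 1 and 2, and 11 with the antisense index. ACTA2 (hg19 chromosome 10, 90694831 to 90751154), which encodes the smooth muscle actin that marks myofibroblasts, was at 488 and 458 CPM untreated and 1036, 906 and 960.2 CPM at 96 h. Every treated library was far above both untreated ones, a change of 1.03 ± 0.08 (SE, adjusted p = 3.05e-07). ACTG2, the gamma actin of smooth muscle, was at 395 and 384 CPM untreated and 619, 569 and 586 CPM at 96 h, a change of 0.60 ± 0.07 (SE, adjusted p = 1.94e-05). TAGLN, the actin-binding protein transgelin, was at 1383 and 1352 CPM untreated and 2208, 1892 and 2124 CPM at 96 h, with replicate 2 the lowest treated library and a change of 0.60 ± 0.07 (SE, adjusted p = 2.25e-05). TPM1, a tropomyosin, rose by 0.44 ± 0.05 (adjusted p = 2.25e-05), the LIM domain protein FHL2 by 0.57 ± 0.07 (adjusted p = 3.61e-05) and MYL9, a myosin light chain, by 0.54 ± 0.07 (adjusted p = 6.5e-05).

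The contractile rises are shown with the CArG box, the site at which serum response factor is known to bind in muscle genes. It was searched by its usual consensus, in which 6 letters A or T stand between CC and GG. It was in the 250 bases before the start of 4 of 21 called contractile genes with a promoter in the table (19.0%), 11 of 89 tested ones (12.4%), 1.14% of all promoters and 1.01% of tested genes. It was in 9 of 361 called rises (2.49%) and 1 of 225 called falls (0.444%). The kept rises with a match were ACTG2, FHL2 and the lysyl hydroxylase gene PLOD1. The first 2 are printed 5′ to 3′ with the box in capitals.
ACTG2 (GRCh38.p14 chr2:73892758-73893007, plus strand): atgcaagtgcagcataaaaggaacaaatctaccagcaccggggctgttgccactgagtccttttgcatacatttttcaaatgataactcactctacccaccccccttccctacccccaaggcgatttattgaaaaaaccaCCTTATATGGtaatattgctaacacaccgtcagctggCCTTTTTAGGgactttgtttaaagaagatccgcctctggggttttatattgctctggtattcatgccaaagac
FHL2 (GRCh38.p14 chr2:105438514-105438763, minus strand): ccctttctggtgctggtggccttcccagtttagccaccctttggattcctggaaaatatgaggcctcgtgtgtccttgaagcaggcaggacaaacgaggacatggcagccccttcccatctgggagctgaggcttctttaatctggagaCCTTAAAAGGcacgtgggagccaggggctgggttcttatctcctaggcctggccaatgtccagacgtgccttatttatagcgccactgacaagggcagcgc
ACTG2 held 2 boxes, starting 110 and 73 bases before the gene's start, and FHL2 held 1 at 101 bases. For FHL2 the start in the RefSeq table lies far upstream of that of the counted transcript, so its box belongs to another transcript's promoter.

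Adhesion genes moved both ways. Of 112 tested genes of integrins and adhesion 12 rose and 7 fell, of which 4 and 3 were kept. Rises numbered 6 and 4 without untreated libraries 1 and 2. ITGA6, a subunit of laminin receptors, was at 305 and 294 CPM untreated and 209, 217 and 206 CPM at 96 h, 1.42-fold lower (-0.51 ± 0.06 SE, adjusted p = 4.03e-05). ITGA1, a subunit of a collagen receptor, was at 200.5 and 199 CPM untreated and 283, 258 and 249 CPM at 96 h. The 2 integrin subunits changed in opposite directions. ITGA1 was at 0.40 ± 0.06 (SE, adjusted p = 0.000598) and an adjusted p = 0.0971 with the antisense index as a covariate, and it overlaps PELO on the same strand, so their reads cannot be told apart in full. NTN4, a netrin of basement membranes, was at 79.1 and 77.9 CPM untreated and 118, 111 and 105 CPM at 96 h and rose by 0.51 ± 0.07 (adjusted p = 0.000105). NRP1, a coreceptor of semaphorins and vascular growth factors, was at 360.3 and 379 CPM untreated and 288, 289 and 277 CPM at 96 h, a change of -0.38 ± 0.06 (SE, adjusted p = 0.000451), and the protocadherin PCDH18 changed by -0.37 ± 0.06 (SE, adjusted p = 0.000599). In the list of intermediate filaments, microtubules and motors 5 of 81 rose and 1 fell (7.41% called, against 5.68% of all tested genes). The fall was DPYSL3, which acts on the cytoskeleton of growing cell processes, at 257 and 266 CPM untreated and 198, 199.7 and 194 CPM at 96 h (-0.41 ± 0.06 SE, adjusted p = 0.000114). Of 95 genes of cilia and centrosomes 1 rose and 3 fell (4.21% called). Among these falls SSX2IP, a centrosome protein, was at 67.5 and 64.4 CPM untreated and 42.7, 48.5 and 46.0 CPM at 96 h (-0.53 ± 0.08 SE, adjusted p = 0.000448).

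A minority of signalling genes passed the test. Of 63 tested genes of the TGF-beta family 12 rose and 1 fell, with a median of 0.06 and 2 of the rises kept. With 1 library left out, rises numbered 5 and 3 without untreated libraries 1 and 2. NREP, a small protein linked to TGF-beta and wound repair, was at 144 and 133 CPM untreated and 208, 200.3 and 195 CPM at 96 h, a change of 0.54 ± 0.07 (SE, adjusted p = 3.96e-05). FSTL1, a secreted follistatin-like protein, rose by 0.34 ± 0.06 (adjusted p = 0.000829). MIR198, a microRNA gene inside FSTL1, has a value of 0.42 ± 0.10 (SE, adjusted p = 0.0112) in the table that cannot be told apart from reads of its host. Of 115 genes of growth factors and their kinases 9 rose and 4 fell, and the number called higher was 4 and 3 without untreated libraries 1 and 2. ERRFI1, an inhibitor of the epidermal growth factor receptor, was at 126 and 120.4 CPM untreated and 224, 207 and 205 CPM at 96 h, 1.72-fold higher (0.78 ± 0.07 SE, adjusted p = 6.96e-07). HGF, the hepatocyte growth factor that fibroblasts secrete, was at 75.2 and 73.9 CPM untreated and 53.8, 53.2 and 54.1 CPM at 96 h, lower in every treated library (-0.47 ± 0.07 SE, adjusted p = 0.000391). IGF2, an insulin-like growth factor, was at 112 and 110.3 CPM untreated and 157, 158 and 164 CPM at 96 h (0.52 ± 0.09 SE, adjusted p = 0.000854), with reads it shares with the read-through gene INS-IGF2. GAS6, a ligand of the TAM receptor kinases, rose by 0.43 ± 0.08 (adjusted p = 0.00127). In the lists of Wnt, Hedgehog and Notch signalling 3 of 78 rose and 3 fell (7.69% called, against 5.68% of all tested genes). WNT5A, a noncanonical Wnt ligand, was the kept call, at 0.31 ± 0.05 (SE, adjusted p = 0.00120) and an adjusted p = 0.117 with the antisense index as a covariate.

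Lists of receptors, channels and regulators of transcription differed in the share called. It ran from 1.64% of nuclear receptor, retinoid and steroid genes to 23.5% of immediate early genes, against 5.68% of all tested genes. RDH10, which makes the precursor of retinoic acid, was at 31.6 and 31.7 CPM untreated and 76.6, 65.4 and 64.7 CPM at 96 h, 2.18-fold higher (1.12 ± 0.09 SE, adjusted p = 3.05e-07), and was the 1 call among 61 genes of nuclear receptors, retinoids and steroids. Of 130 genes of G protein-coupled receptors 11 rose and 1 fell, and the number called higher was 7 without 72 h library 1, 6, 7 and 7 without treated libraries 1, 2 and 3 and 4 and 4 without untreated libraries 1 and 2. OXTR, the oxytocin receptor, was at 35.6 and 34.1 CPM untreated and 60.2, 51.1 and 55.2 CPM at 96 h (0.67 ± 0.09 SE, adjusted p = 0.000102), GPRC5A rose by 0.47 ± 0.07 and the somatostatin receptor SSTR1 by 0.64 ± 0.11, with adjusted p = 0.000376 and 0.000691. Of 161 channels and transporters 5 rose and 9 fell, and the number called lower was 5 and 3 without treated libraries 1 and 3 and 2 and 2 without untreated libraries 1 and 2. KCNMA1, a calcium-activated potassium channel, was at 79.4 and 84.0 CPM untreated and 51.6, 56.3 and 53.3 CPM at 96 h (-0.60 ± 0.07 SE, adjusted p = 3.55e-05). TRPA1, a cation channel that senses irritants and oxidants, was at 60.0 and 53.6 CPM untreated and 30.9, 37.2 and 36.0 CPM at 96 h, 1.64-fold lower (-0.71 ± 0.09 SE, adjusted p = 6.09e-05). Of 143 developmental transcription factors 7 rose and 3 fell, with EYA4, a transcription coactivator of development, at -0.62 ± 0.09 (SE, adjusted p = 0.000301). Of 51 immediate early genes 10 rose and 2 fell, and the number called higher was 5 and 4 without untreated libraries 1 and 2. CEBPD, a transcription factor of stress and differentiation, was at 31.6 and 29.4 CPM untreated and 45.5, 55.1 and 56.3 CPM at 96 h (0.78 ± 0.11 SE, adjusted p = 0.000276). Of 201 genes of membrane trafficking 9 rose and none was kept, and the number was 2, 5 and 5 without treated libraries 1, 2 and 3 and 1 and 0 without untreated libraries 1 and 2.

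Some inflammatory genes were higher. Of 91 tested NF-kB targets and secreted factors 14 rose and 1 fell, with a median of 0.09 and 3 of them kept, and DESeq2 called 9 genes in all. The number called higher was 8, 6 and 8 without treated libraries 1, 2 and 3 and 4 and 4 without untreated libraries 1 and 2. TNFSF4, the ligand OX40L, was at 18.4 and 18.4 CPM untreated and 32.1, 36.2 and 36.3 CPM at 96 h, 1.89-fold higher (0.92 ± 0.10 SE, adjusted p = 1.5e-05). ICAM1, an adhesion molecule for leukocytes, was at 17.3 and 19.0 CPM untreated and 33.4, 28.7 and 30.3 CPM at 96 h (0.76 ± 0.12 SE, adjusted p = 0.000376). F3, the tissue factor that starts clotting, rose by 0.42 ± 0.07 (adjusted p = 0.000599), with an adjusted p = 0.165 with the antisense index as a covariate. IL6, an inflammatory cytokine, was low in all libraries, at 2.69 and 3.17 CPM untreated and 5.27, 5.57 and 4.12 CPM at 96 h. Its change of 0.76 ± 0.21 (SE, adjusted p = 0.0380) lost its call without treated library 1 or 2 or any untreated library (adjusted p up to 0.261). Of 108 genes of interferon, nucleic acid sensing and antigen presentation 7 rose and 2 fell, with a median of 0.06. That is 8.33% called, against 5.68% of all tested genes. TRIM22, a gene induced by both interferon and p53, was at 36.5 and 38.4 CPM untreated and 59.4, 56.5 and 52.8 CPM at 96 h (0.59 ± 0.10 SE, adjusted p = 0.00067), with an adjusted p = 0.0966 with the antisense index as a covariate. IFIT1, a standard interferon-stimulated gene, was at 12.9 and 10.3 CPM untreated and 8.64, 9.92 and 10.7 CPM at 96 h, overlapping between the groups and not called (-0.25 ± 0.18 SE, adjusted p = 0.456).

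Genes that build ribosomes and process RNA were called lower, by small amounts. Of 131 tested genes of ribosome biogenesis 19 fell, with a median of -0.15. None of these falls was kept. The number called lower was 8, 9 and 9 without treated libraries 1, 2 and 3 and 1 and 0 without untreated libraries 1 and 2, and 7 with the antisense index as a covariate. NCL, the nucleolar protein nucleolin, was at 997 and 993 CPM untreated and 844, 849 and 796 CPM at 96 h. The treated libraries were all lower, but the change of -0.26 ± 0.05 (SE, adjusted p = 0.00490) lost its call without any untreated library (adjusted p up to 0.0652). DDX21, a nucleolar helicase, was at -0.28 ± 0.06 (SE, adjusted p = 0.00759) and lost its call without any untreated library (adjusted p up to 0.103). Of 149 splicing genes 11 fell, with a median of -0.12, and none was kept. The number was 5, 7 and 4 without treated libraries 1, 2 and 3 and 0 and 0 without untreated libraries 1 and 2. The splicing factor SRSF1 was at 425 and 418 CPM untreated and 349, 358 and 341 CPM at 96 h (-0.27 ± 0.05 SE, adjusted p = 0.00423), a call that ended without any untreated library (adjusted p up to 0.0587). Cytosolic ribosomal proteins themselves had 1 rise among 78, with a median of 0.10, and translation factors had 1 rise among 70.

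Genes near the median size of their direction come from several programs. Rises centred on 0.40 and falls on 0.33 on the log2 scale. The 8 kept rises nearest to the centre were ITGA1, ZNF395, PLOD1, EFEMP2, BNIP3L, DDAH1, ASNS and FBLN5. EFEMP2, a fibulin of elastic fibres, was at 239 and 246 CPM untreated and 329.5, 294 and 340.5 CPM at 96 h (0.41 ± 0.07 SE, adjusted p = 0.00157). FBLN5, another fibulin, was at 184 and 177 CPM untreated and 242, 233 and 243 CPM at 96 h (0.41 ± 0.07 SE, adjusted p = 0.000815). DDAH1, which breaks down an inhibitor of nitric oxide synthesis, was at 134 and 128 CPM untreated and 181, 176 and 165 CPM at 96 h (0.41 ± 0.07 SE, adjusted p = 0.00057). ZNF395, a zinc finger gene of the hypoxia list, rose by 0.40 ± 0.07 (adjusted p = 0.00204), with an adjusted p = 0.0572 with the antisense index as a covariate. Of 507 tested genes with a ZNF or ZFP symbol 4 rose and 4 fell. The 8 kept falls nearest to the centre were ELAC2, PARP1, DHX9, PCDH18, CPT1A, NRP1, SMC1A and H1F0. DHX9, an RNA helicase, was at 272 and 261 CPM untreated and 208, 215 and 194 CPM at 96 h (-0.37 ± 0.06 SE, adjusted p = 0.000875). SMC1A, a subunit of cohesin, was at 253 and 267 CPM untreated and 202, 206 and 192 CPM at 96 h (-0.38 ± 0.06 SE, adjusted p = 0.000482). In these middling genes the gap between the groups was small against the level. That the groups were separated follows from the choice of genes, since they did not overlap in any of the 759 called genes.

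Genes in none of the lists made up 303 of the called genes. The kept rises with the smallest p were LBH, CBSL, MFGE8, CORIN, MEST, MAMDC2, C1orf198, MASP1, FAM43A and THSD1. LBH, a transcription cofactor of limb and heart development, was at 265 and 251 CPM untreated and 413, 406 and 417 CPM at 96 h (0.68 ± 0.07 SE, adjusted p = 7.53e-06). MFGE8, a secreted glycoprotein that helps clear dying cells, was at 683 and 661 CPM untreated and 1055, 957 and 1078 CPM at 96 h (0.62 ± 0.07 SE, adjusted p = 1.94e-05). CORIN, a membrane protease that processes natriuretic peptide, was at 16.5 and 14.2 CPM untreated and 29.3, 26.2 and 28.0 CPM at 96 h (0.86 ± 0.11 SE, adjusted p = 3.55e-05). MEST, an imprinted gene of the hydrolase family, rose by 0.68 ± 0.09 and MASP1, a protease of the lectin pathway of complement, by 0.61 ± 0.08, each with an adjusted p of 4.49e-05 or less. The kept falls were 7: CDCA7, SMC1A, PAQR4, DHX9, NECTIN1, NUP188 and WDR76. CDCA7, a chromatin protein of dividing cells, was at 46.0 and 47.5 CPM untreated and 30.2, 27.6 and 31.8 CPM at 96 h (-0.65 ± 0.09 SE, adjusted p = 7.79e-05). NECTIN1, a cell adhesion protein, was at 15.1 and 16.0 CPM untreated and 9.59, 8.96 and 8.16 CPM at 96 h, 1.74-fold lower (-0.80 ± 0.14 SE, adjusted p = 0.000934). NUP188, a part of the nuclear pore, changed by -0.39 ± 0.07 (SE, adjusted p = 0.00114). WDR76 was not called with the antisense index as a covariate (adjusted p = 0.0865).

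Levels at the other times were read for some of these genes. The other times share the untreated libraries with the comparison at 96 h, so values are given side by side without a test. How long the untreated cells had been in culture is uncertain, so hours of ddC and time in culture cannot be told apart here. Means are given with the SD, over 2 untreated libraries and 3 at each time. CDKN1A averaged 439.7 ± 14.5 CPM untreated and 588 ± 55.2, 643 ± 31.2, 673 ± 64.3 and 879 ± 23.2 CPM at 24, 48, 72 and 96 h. MCM7 averaged 254 ± 5.90 CPM untreated and 222 ± 13.5, 235 ± 6.73, 215 ± 3.44 and 175 ± 5.35 CPM at 24, 48, 72 and 96 h. For both genes the mean lay apart from the untreated mean at 24 h and farthest from it at 96 h. ACTA2 averaged 473 ± 20.7 CPM untreated and 522 ± 13.5, 508 ± 16.5, 790.4 ± 94.1 and 967 ± 64.9 CPM at 24, 48, 72 and 96 h. ELN averaged 178 ± 2.53 CPM untreated and 171 ± 15.2, 177 ± 7.87, 241 ± 21.6 and 319.8 ± 28.4 CPM at 24, 48, 72 and 96 h. These contractile and matrix genes were near the untreated mean at 24 and 48 h, and their means were higher at 72 and 96 h. The antisense index differs at about the same time. It was 0.813 to 0.959 in the untreated libraries, the 24 h libraries and 48 h libraries 1 and 2, and 1.08 to 1.20 in 48 h library 3 and the libraries of 72 and 96 h. In 48 h library 3, where the index was 1.13, ACTA2 was at 509 CPM and ELN at 168 CPM, within or below the range of the other 48 h libraries. That is 1 library. At 72 and 96 h the index and the exposure time cannot be told apart, and the part of the index was not tested. DDIT4 averaged 64.4 ± 2.52 CPM untreated and 75.3 ± 3.20, 66.7 ± 2.93, 81.2 ± 6.92 and 119 ± 7.76 CPM at 24, 48, 72 and 96 h, with most of the difference between 72 and 96 h.

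**Figure D4:**
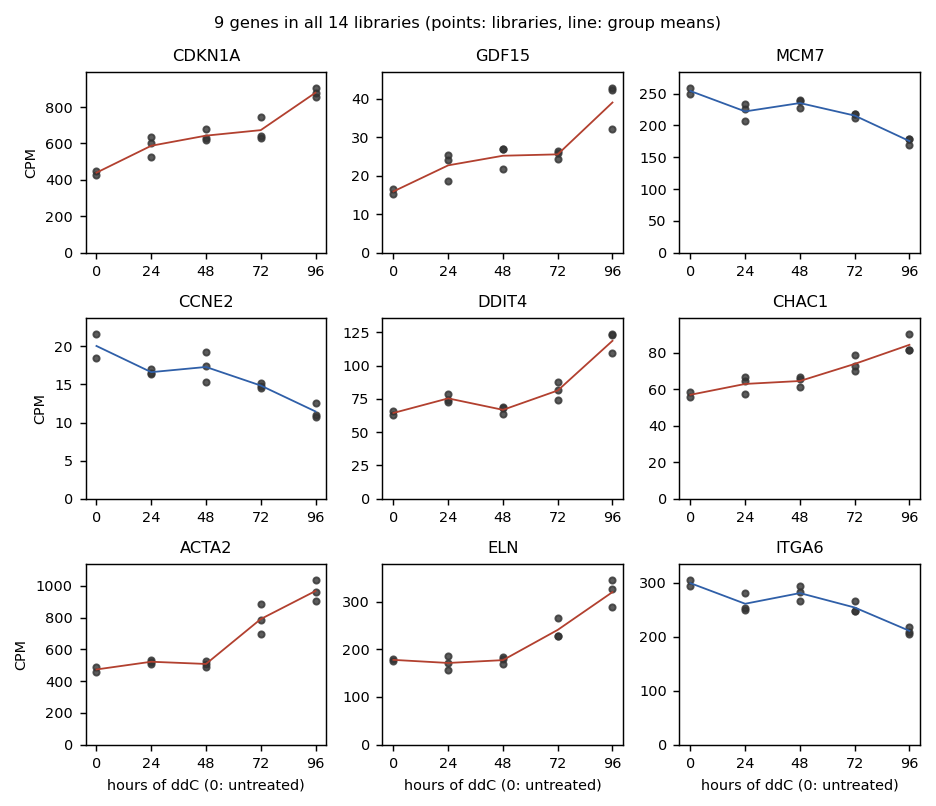
CPM of 9 genes (vertical axes, from 0) in all 14 libraries by hours of ddC (horizontal axes), with points for libraries and a line through group means. Untreated libraries are placed at 0 because they had no ddC, and their time in culture is uncertain. The means of CDKN1A and GDF15 are above the untreated mean from 24 h on, those of ACTA2 and ELN mainly from 72 h, and all 9 means are farthest from untreated at 96 h.

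The antisense index was carried through the fit because it differs between the groups. With the index as a covariate 382 genes were called, 233 higher and 149 lower, and 280 of the 759 were among them. All 759 kept their sign. Their median size was 0.45 on the log2 scale in place of 0.37, and their median SE was 0.13 in place of 0.08. The size was larger for 538 of them and smaller for 221. Among the 479 that lost their call it was larger for 273 and smaller for 206. COL4A1, at 0.36 as reported, stood at 0.22 with the index, and F3, at 0.42, stood at 0.24. Of the 139 kept genes 119 were called in this fit, among them the p53 and replication genes named above as kept. For lists with at least 8 calls in a direction and no count with the index above, it is given here where it moved by more than 1.5 times. Rises numbered 5 for serine and amino acid synthesis, 2 for synthetases and amino acid transporters, 4 for endoplasmic reticulum folding, 3 for matrix proteases and inhibitors, 5 for integrins and adhesion and 7 for the TGF-beta family. They numbered 5 for growth factors and kinases, 5 for immediate early genes, 4 for NF-kB targets, 4 for G protein-coupled receptors and 3 for trafficking. Falls numbered 1 for heat shock and proteasome, 4 for splicing and 3 for channels and transporters. In the fit that includes the nuclear RNA score 1856 genes were called, and all 53 lists held more calls than reported above.

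**Figure D5:**
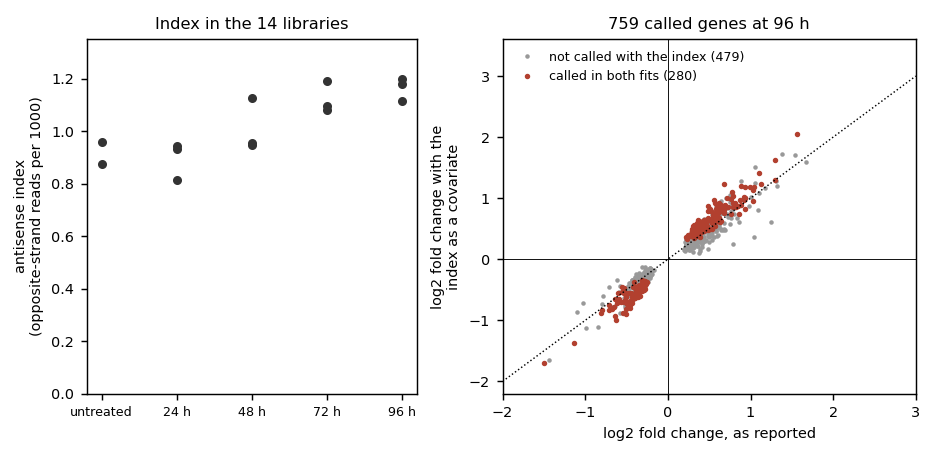
Left, antisense index (opposite-strand reads per 1000 reads of abundant genes) in the 14 libraries by group. Right, log2 fold change of the 759 called genes as reported (horizontal axis) and with the index as a covariate (vertical axis), red where called in both fits (280) and grey where not (479). The points follow the dotted line of equal values and none changes sign. 3 genes lie outside the axes.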

How the data were processed

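Polyadenylated RNA was sequenced from 14 libraries of IMR90 cells with a stranded kit, per the labels' protocols. The authors deposited whole-number read counts per gene, made with STAR 2.5.3a, HOMER and the hg19 build, per the submitters' processing notes. The steps from here were made on those counts. Genes were kept with filterByExpr (minimum count 10, minimum total 15), libraries were scaled by TMM and all 14 were fitted by group in edgeR 4.0.16 under R 4.3.3 with the robust quasi-likelihood test, so that all groups share 1 estimate of spread. The design of 5 groups left 9 residual degrees of freedom. P-values were adjusted over all 13371 tested genes by Benjamini-Hochberg, with calls at 0.05. The SE is the log2 fold change divided by the square root of F, and CPM uses TMM-scaled library sizes. Library totals were 9398703 to 12147402 counts. P-values measure the spread between libraries described as biological replicates.

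The comparison, the lists and the named genes were chosen with earlier results of these data known. Named were, per list, up to 6 kept members with the smallest p (leaving out the 6 largest rises and 6 largest falls) or, where fewer than 2 were kept, called members with the libraries that end the call. Added were the 8 kept rises and 8 kept falls nearest to the median size, the 10 kept genes outside the lists in each direction with the smallest p, and a set of reference genes whether called or not. Y-linked genes were left out. Some genes that this rule names are not reported here. KRT8 as a marker and CBSL, MIR198, INS-IGF2 and PELO as genes that share reads were named for that reason. Gene coordinates are those of the deposited table (hg19). Promoters come from a RefSeq table of GRCh38.p14 matched by symbol, and unmatched genes were not analysed here. Only the first start listed per symbol was used, which need not be that of the counted transcript. The antisense index sums reads of 251 genes that lie opposite genes above 100 CPM and hold at most 1% of their reads. The nuclear RNA score is the mean log2 CPM (with 0.5 added) of MALAT1, NEAT1, MEG3 and KCNQ1OT1. Alternatives were median-ratio size factors, DESeq2 1.42.0, voom in limma 3.58.1, no filter, a replicate block, the 5 compared libraries only, either library measure as a covariate, a threshold of 0.01 and each library left out.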

Additional observations from a re-analysis of the deposited data

How the results depend on the processing

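The number of called genes, 759 with 477 higher and 282 lower, differed between fits. Fitting only the 5 compared libraries gave 1646 (903 higher, 743 lower), and the nuclear RNA score as a covariate gave 1856 (977 higher, 879 lower). The antisense index as a covariate gave 382 (233 higher, 149 lower), and an adjusted p under 0.01 gave 310 (216 higher, 94 lower). With 1 library left out in turn the count ran from 174 to 1034, with 123 to 612 higher and 51 to 422 lower, lowest without untreated replicate 2 and highest without 72 h replicate 3. Median-ratio size factors gave 767, DESeq2 757, limma-voom 742 and no filter on low counts 793, and no called gene changed sign in any of these fits. The naming rule picked 161 called genes, some of which are not reported here. Of these 161, 47 were not called with the antisense index, 21 at the stricter threshold and at most 5 in any of the other fits on all 14 libraries. Of the 139 genes that kept their call without each library, 118 were also called by DESeq2, limma-voom, the replicate block, the 5-library fit and both covariates. A replicate block gave 687 calls (431 higher, 256 lower). The groups share only the numbers 1 and 2, and deviations of their same-numbered libraries from the group means correlated at -0.337 and -0.383. The deviations of the 2 untreated libraries mirror each other, so these values cannot decide whether the samples are paired. Over all groups same-numbered pairs ran from -0.522 to 0.742, so that not every pair was above 0.1. Whether equal numbers mean a shared origin was not settled.

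Genes that were never called changed sign in single fits, and the cause was not tested. With 1 library left out, the log2 fold change of TK2 ran from -0.13 to 0.0579 and the log2 fold change of SQSTM1 from -0.00317 to 0.0433. With the antisense index the log2 fold change of DCK was 0.114 and the log2 fold change of TXNRD1 was 0.0333. The main limit is the pair of untreated libraries. Without either, 1 library stands for the group and is assumed to vary like the others. What depth limits was not tested.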
